A study of Homo sapiens with 8 samples.

Results

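Genes that p53 binds and activates directly, other than the gene of the cell cycle inhibitor p21 (CDKN1A), were followed in HCT116 cells given the small molecule P2. The list held 40 genes taken by name, and it was chosen with earlier results of these data known. Of these, 37 had a probe on the Illumina chips (52 probes), and BTG2, FDXR and PLXNB2 are not analysed here. A gene was tested where at least 1 of its probes had a detection p-value under 0.05 on at least 2 of the 8 arrays, which left 33 genes with 44 tested probes, of 10932 genes and 14574 probes tested in all. HCT116 is an established human colon cancer line, and the p53-/- cells are derived from the p53+/+ line by disruption of p53. The 4 groups of 2 arrays were untreated p53-/- cells, untreated p53+/+ cells, p53-/- cells treated with P2 at 25 µM and p53+/+ cells treated with P2 at 25 µM. No solvent control, treatment time or clone number is given, and whether the arrays of a group hold separate cultures is not stated, so the p-values cover no more than the scatter of these arrays, part or all of which may be technical. With 8 arrays the precision is limited.

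p53 is a transcription factor that is stabilised after DNA damage and other stress and then binds paired copies of a short consensus sequence in or near its target genes. The targets arrest the cell cycle, repair DNA, handle reactive oxygen, drive apoptosis or feed back on p53 itself, and many of them can also be raised by other factors. HCT116 p53+/+ cells carry wild-type p53 and are a standard model for its target genes, with the p53-/- cells as the comparison without it. An array value is the relative level of an RNA in the whole culture, so fewer expressing cells and less RNA per cell cannot be told apart.

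In both genotypes P2 raised a set of these genes and lowered 2 of them. In p53-/- cells 13 of 33 genes rose, 2 fell and 18 did not pass the test (39.4% higher and 6.06% lower), beside 10.4% of all tested genes higher, 14.5% lower and 24.9% called in either direction. In p53+/+ cells 12 rose, 2 fell and 19 did not pass (36.4% higher and 6.06% lower), beside 5.82% of all genes higher, 6.85% lower and 12.7% called in either direction. The median P2 effect over the 33 genes was 0.32 log2 in p53-/- cells and 0.29 in p53+/+ cells, against medians of -0.059 and -0.018 over all tested genes. It was 0.19 in p53-/- cells without p53-/- untreated replicate 1, and 0.19 and 0.15 in the 2 genotypes with median scaling in place of quantile normalization. With dim probes kept, which took in all 37 genes with a probe, it was 0.19 in p53-/- cells. The same 10 genes rose in both genotypes, TP53INP1, TP53I3, PHLDA3, DDB2, CES2, CYFIP2, TP53I13, SESN1, NINJ1 and DRAM1, and the same 2, PLK2 and PTP4A1, fell in both. How many of all tested genes rose or fell in both genotypes was not counted. Tests were moderated two-sided limma tests with Benjamini-Hochberg adjustment over all tested probes and a threshold of 0.05, and a gene was called by its brightest tested probe. Median scaling moved the median of all tested probes from -0.042 to -0.12 log2 in p53-/- cells and from -0.0054 to -0.11 in p53+/+ cells. With it 9 and 8 members were called, beside 17.5% and 6.95% of all tested probes, against 25.4% and 12% with quantile normalization. XPC, SESN1, DRAM1, TP53I13, CYFIP2 and NINJ1 then missed the threshold in p53-/- cells, as did SESN1, STEAP3, PHLDA3, DRAM1, TP53I13 and NINJ1 in p53+/+ cells.

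**Figure D1:**
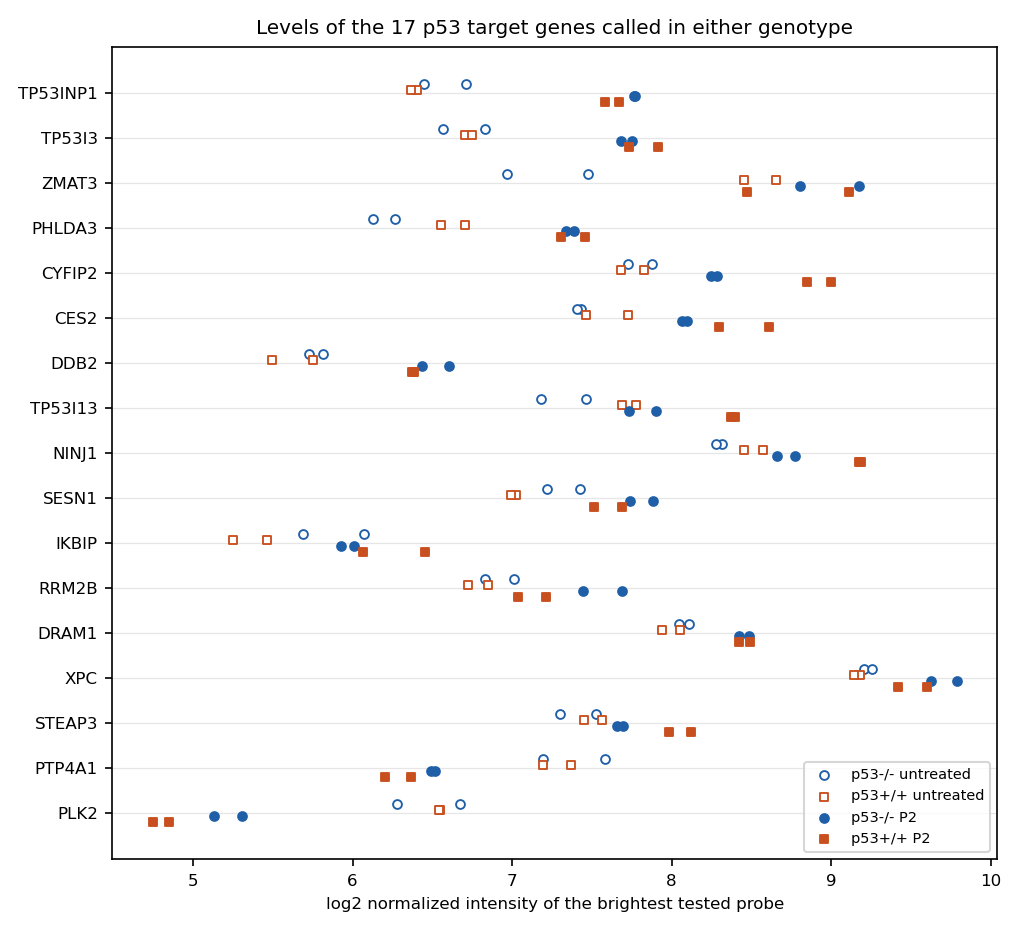
Log2 normalized intensity (x axis) of the brightest tested probe of the 17 genes that passed the test in either genotype, with 1 symbol per array, circles for p53-/- and squares for p53+/+ cells, open for untreated and filled for P2. The filled symbols lie to the right of the open ones of the same genotype for most genes and to the left for PTP4A1 and PLK2, while for IKBIP the filled circles lie between the open circles.

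Across the series, 12775 to 13998 of 24526 probes were detected per array (52.1% to 57.1%), and the arrays of a group correlated with r = 0.989 in untreated p53-/- cells and 0.995 in each of the other groups. The lower value came with p53-/- untreated replicate 1, on which 215 tested probes fell short of replicate 2 by 1 log2 or more. Among the 44 member probes 1 did so, a dimmer probe of IKBIP (4.95 against 6.06). Without that array 11 members were called in p53-/- cells (9 higher, 2 lower), all 11 among the 15 called with it, beside 14.9% of all tested probes against 25.4% with it. Of 12 epithelial markers with a probe, 9 were detected on all 8 arrays, EPCAM, CDH1 and keratin genes among them, and CDX1 on none. Of the fibroblast markers 4 of 7 were detected on no array, as were 2 of 6 leukocyte, 3 of 5 endothelial and 2 of 3 erythroid markers. COL1A1, LYZ, CD68, PECAM1 and HBA2, markers of these cell types, were detected on all 8 arrays. With P2, HBA2 fell by 0.79 log2 in p53-/- and by 0.99 in p53+/+ cells (adjusted p = 0.00854 and 0.00539), CD68 rose by 0.45 and 0.47 (adjusted p = 0.0288 and 0.0417), and LYZ and COL1A1 fell in p53-/- cells by 0.88 and 0.49 (adjusted p = 0.00364 and 0.0234). The summed epithelial marker level ran from 12376 to 15209 normalized intensity units on the untreated arrays and from 16316 to 18780 on the treated arrays, and the part of these markers in the results was not tested. The targeted gene, p53 itself, is not analysed here, so the genotypes are given as labelled.

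Promoter sequences were looked up for all members because p53 binds some of its targets near the gene start. RefSeq (GRCh38.p14) gave 51 promoters for 33 of the 40 members, each from 250 bases before to 50 bases after a gene start. The p53 consensus decamer, a self-complementary motif that reads alike on both strands, lay in a promoter of 6 of these 33 members (18.2%), PLK2, SESN1, DDB2, AEN, RPS27L and FDXR, and in 8.06% of all 27305 genes with a promoter. Genes differ in their number of promoters. Counted by promoter, the decamer lay in 1 promoter of each of these 6 members, of 51 member promoters, and in 6.63% of all promoters. Only DDB2 among the 6 members had 2 decamers at most 13 bases apart, with 1 base between the copies. This arrangement was found in 0.0366% of all genes. Many p53 binding sites lie elsewhere, in introns for example, so a promoter without the decamer says only that these letters are not in this stretch. Shown are the genes with a decamer whose levels were tested, to set the motif beside the changes reported further on, read 5′ to 3′ on the strand of the gene, with the decamer in capitals. For PLK2, SESN1 and AEN the 250 bases before the gene start are shown. For DDB2, bases 4 to 28 after the gene start are shown, from the 1 of its 2 promoters that holds decamers.
PLK2 (chr5:58460087-58460336, minus strand): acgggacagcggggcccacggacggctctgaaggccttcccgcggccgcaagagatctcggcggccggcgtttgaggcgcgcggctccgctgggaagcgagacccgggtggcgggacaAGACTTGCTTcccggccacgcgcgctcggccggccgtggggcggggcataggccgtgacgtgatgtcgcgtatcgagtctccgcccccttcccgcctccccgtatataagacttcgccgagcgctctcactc
SESN1 (chr6:109008989-109009238, minus strand, 1 of 3 promoters): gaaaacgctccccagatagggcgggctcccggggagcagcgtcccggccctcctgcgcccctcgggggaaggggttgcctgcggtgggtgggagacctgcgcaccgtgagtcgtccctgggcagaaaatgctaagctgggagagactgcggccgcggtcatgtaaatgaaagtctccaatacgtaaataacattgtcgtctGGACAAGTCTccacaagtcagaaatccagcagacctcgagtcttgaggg
AEN (chr15:88621090-88621339, plus strand): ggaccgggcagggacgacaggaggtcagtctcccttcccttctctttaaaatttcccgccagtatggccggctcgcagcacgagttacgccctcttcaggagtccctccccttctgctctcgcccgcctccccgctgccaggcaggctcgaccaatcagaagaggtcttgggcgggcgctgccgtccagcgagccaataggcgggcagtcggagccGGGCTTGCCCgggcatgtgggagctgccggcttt
DDB2 (chr11:47214977-47215001, plus strand): ttGAACAAGCCCtGGGCATGTTTgg
These 4 genes did not move alike. PLK2 fell, SESN1 and DDB2 rose, and AEN, an exonuclease that promotes apoptosis, read 9.12 and 9.03 in untreated and 9.0 and 9.11 in treated p53-/- cells, a change of -0.020 ± 0.11 log2 (adjusted p = 0.907).

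Among the genes of DNA repair, damage tolerance and nucleotide supply, 3 of 6 tested rose in p53-/- cells and 1 of 6 in p53+/+ cells, and none fell. The gene that rose in both was DDB2, which recognises ultraviolet damage in chromatin. Its probe read 5.81 and 5.73 log2 units in the untreated and 6.44 and 6.61 in the treated p53-/- arrays, and 5.75 and 5.49 untreated and 6.39 and 6.37 with P2 in the p53+/+ arrays. All 4 treated arrays thus lay above all 4 untreated ones. The change was 0.75 ± 0.12 log2 (SE, n = 2 arrays per group, 1.68-fold, limma adjusted p = 0.00328) in p53-/- cells and 0.75 ± 0.12 (1.69-fold, adjusted p = 0.00539) in p53+/+ cells. RRM2B, the p53-inducible subunit of ribonucleotide reductase that supplies deoxynucleotides for repair, read 7.01 and 6.83 without and 7.44 and 7.69 with P2 in p53-/- cells, and 6.72 and 6.85 untreated and 7.04 and 7.21 with P2 in p53+/+ cells. The treated arrays were higher in each genotype, by 0.65 ± 0.13 log2 (adjusted p = 0.00813) and 0.34 ± 0.13 (adjusted p = 0.129), and the difference between these effects was -0.31 ± 0.18 (adjusted p = 0.451). XPC, the damage sensor of nucleotide excision repair, rose by 0.48 ± 0.11 log2 in p53-/- cells (adjusted p = 0.0160), from 9.20 and 9.26 to 9.62 and 9.79, and differed by 0.35 ± 0.11 in p53+/+ cells (adjusted p = 0.0809). The call of XPC in p53-/- cells was lost without p53-/- untreated replicate 1 or p53-/- P2 replicate 2 (0.39 to 0.45 log2, adjusted p = 0.0639 to 0.0921), and that of RRM2B without p53-/- P2 replicate 2 (0.53 log2, adjusted p = 0.0570). The DNA damage-inducible gene GADD45A differed by -0.16 ± 0.11 log2 in p53-/- and 0.030 ± 0.11 in p53+/+ cells. The polymerase subunit gene REV3L differed by -0.21 ± 0.21 and -0.082 ± 0.21, and the helicase gene ASCC3 by -0.33 ± 0.14 and -0.17 ± 0.14. None of these genes passed in either genotype. POLH, a polymerase that copies past damaged bases, was detected on 0 arrays.

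The genes of redox control, metabolism and transport had 3 of 6 tested members higher in p53-/- cells and 4 of 6 in p53+/+ cells. TP53I3, an oxidoreductase gene linked to reactive oxygen and apoptosis, read 6.83 and 6.57 in untreated and 7.75 and 7.68 in treated p53-/- cells, and 6.70 and 6.75 untreated and 7.92 and 7.73 with P2 in p53+/+ cells. All 4 treated arrays again lay above all 4 untreated ones. It rose by 1.02 ± 0.12 log2 in p53-/- cells (2.03-fold, adjusted p = 0.000853) and by 1.10 ± 0.12 in p53+/+ cells (2.14-fold, adjusted p = 0.000817). A dimmer TP53I3 probe near the detection limit, at 5.19 and 5.15 untreated and 5.46 and 5.46 with P2 in p53-/- cells, changed by 0.29 ± 0.10 (adjusted p = 0.0627) and, in p53+/+ cells, by 0.092 ± 0.10 (adjusted p = 0.60). CES2, a carboxylesterase that activates the drug irinotecan, read 7.43 and 7.41 untreated and 8.07 and 8.09 with P2 in p53-/- cells and 7.72 and 7.47 untreated and 8.61 and 8.30 with P2 in p53+/+ cells. Its treated arrays were all above the untreated ones, with changes of 0.66 ± 0.14 log2 (adjusted p = 0.00893) and 0.86 ± 0.14 (adjusted p = 0.00475). The second CES2 probe was detected on no untreated p53-/- array and rose there at least 1.47-fold (0.87 ± 0.16 log2 as fitted, adjusted p = 0.00504), computed against the lowest signal among detected probes, while in p53+/+ cells it differed by 0.18 ± 0.16 (adjusted p = 0.503). The CES2 call in p53-/- cells was lost without p53-/- P2 replicates 1 or 2 (0.65 to 0.67 log2, adjusted p = 0.0502 to 0.0516).

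SESN1, a sestrin that restrains mTORC1 signalling and oxidative stress, read 7.43 and 7.22 untreated and 7.74 and 7.88 with P2 in p53-/- cells and 7.03 and 7.0 untreated and 7.51 and 7.69 with P2 in p53+/+ cells. It rose by 0.49 ± 0.12 log2 (adjusted p = 0.0187) and 0.59 ± 0.12 (adjusted p = 0.0154). STEAP3, a metalloreductase that reduces iron in endosomes, read 7.45 and 7.56 untreated and 7.99 and 8.12 with P2 in p53+/+ cells and rose there by 0.55 ± 0.12 log2 (adjusted p = 0.0192). In p53-/- cells STEAP3 read 7.30 and 7.53 untreated and 7.70 and 7.66 with P2, a change of 0.26 ± 0.12 (adjusted p = 0.133), and the effects differed by 0.28 ± 0.17 (adjusted p = 0.442). The SESN1 call was lost in p53-/- cells without p53-/- untreated replicate 2 or p53-/- P2 replicates 1 or 2 (0.38 to 0.56 log2, adjusted p = 0.0531 to 0.102), and in p53+/+ cells without p53+/+ untreated replicates 1 or 2 or p53+/+ P2 replicate 2 (0.51 to 0.60 log2, adjusted p = 0.0807 to 0.105). The STEAP3 call in p53+/+ cells was lost without any 1 of the 4 arrays compared (0.48 to 0.62 log2, adjusted p = 0.0645 to 0.119). FAM210B, a mitochondrial membrane protein gene, lay just outside the threshold in p53-/- cells with 0.40 ± 0.13 log2 (adjusted p = 0.0581) and read 0.21 ± 0.13 in p53+/+ cells. TIGAR, whose product lowers fructose-2,6-bisphosphate and thereby glycolysis, had values of -0.30 ± 0.11 (adjusted p = 0.0718) and -0.25 ± 0.11 (adjusted p = 0.180).

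The cell cycle and growth arrest members held both genes that fell, and none of the 6 tested rose in either genotype. PLK2, a polo-like kinase of centriole duplication, read 6.68 and 6.28 in untreated and 5.13 and 5.31 in treated p53-/- cells, and 6.55 and 6.54 untreated and 4.75 and 4.85 with P2 in p53+/+ cells. Every treated array was below every untreated one, and the treated p53+/+ arrays lay near the lowest signal of detected probes, 4.73 to 4.92 log2 over the arrays. PLK2 fell by 1.26 ± 0.14 log2 in p53-/- cells (2.39-fold, adjusted p = 0.000629) and by 1.75 ± 0.14 in p53+/+ cells (3.35-fold, adjusted p = 0.000127), the largest change of the 33 genes in p53+/+ cells. PTP4A1, a protein tyrosine phosphatase that promotes proliferation, read 7.58 and 7.19 untreated and 6.49 and 6.52 with P2 in p53-/- cells and 7.19 and 7.37 untreated and 6.37 and 6.21 with P2 in p53+/+ cells. The groups did not overlap, and the falls were 0.88 ± 0.14 log2 (adjusted p = 0.00328) and 0.99 ± 0.14 (adjusted p = 0.00293). TOB1, an antiproliferative protein gene, had values of 0.32 ± 0.12 (adjusted p = 0.0820) and 0.39 ± 0.12 (adjusted p = 0.0669), just outside the threshold. The F-box protein gene FBXO22 differed by 0.19 ± 0.10 and 0.27 ± 0.10, and the transcriptional regulator gene SERTAD1 by -0.028 ± 0.11 and 0.076 ± 0.11. PLK3, another polo-like kinase gene, and the decoy receptor gene TNFRSF10C were the dimmest genes to be tested, detected on 3 arrays each, with 4.49 to 4.99 and 4.56 to 4.85 log2, while every other tested gene was detected on all 8. Just outside the detection rule, RPS27L was detected on 1 array, at 4.46 to 4.92.

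The group of apoptosis, survival and autophagy genes was the largest, with 6 of 12 tested higher in p53-/- cells and 6 of 12 in p53+/+ cells, and none lower. TP53INP1, a nuclear protein that promotes p53-dependent apoptosis and autophagy, read 6.71 and 6.45 in untreated and 7.77 and 7.77 in treated p53-/- cells, and 6.4 and 6.36 untreated and 7.67 and 7.58 with P2 in p53+/+ cells. The treated arrays lay close together and above all untreated ones. The rises were 1.19 ± 0.12 log2 (2.28-fold, adjusted p = 0.000278) and 1.24 ± 0.12 (2.37-fold, adjusted p = 0.000261). PHLDA3, which blocks AKT at the membrane, read 6.27 and 6.13 untreated and 7.34 and 7.39 with P2 in p53-/- cells and 6.56 and 6.70 untreated and 7.30 and 7.46 with P2 in p53+/+ cells. Its treated levels overlapped between the genotypes and its untreated levels did not, with rises of 1.16 ± 0.11 log2 (adjusted p = 0.000281) and 0.75 ± 0.11 (adjusted p = 0.00376).

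ZMAT3, an RNA-binding zinc finger protein that regulates splicing and RNA stability downstream of p53, had the largest rise in p53-/- cells among the 33 genes. It read 6.97 and 7.47 in untreated and 9.17 and 8.80 in treated p53-/- cells, and 8.45 and 8.65 untreated and 9.11 and 8.47 with P2 in p53+/+ cells. The untreated p53-/- arrays thus stood below the other 6, which lay between 8.45 and 9.17. ZMAT3 rose by 1.77 ± 0.24 log2 (3.41-fold, adjusted p = 0.00134) in p53-/- cells and differed by 0.24 ± 0.24 in p53+/+ cells (adjusted p = 0.564). Without p53-/- untreated replicate 1, the lower of the 2, its rise there was smaller (1.5, adjusted p = 0.00310).

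CYFIP2, a subunit of the actin-regulating WAVE complex, read 7.88 and 7.72 untreated and 8.25 and 8.29 with P2 in p53-/- cells and 7.82 and 7.68 untreated and 9.0 and 8.85 with P2 in p53+/+ cells. The treated p53+/+ arrays were the highest, with rises of 0.47 ± 0.11 log2 (adjusted p = 0.0176) and 1.17 ± 0.11 (2.25-fold, adjusted p = 0.000340). A second CYFIP2 probe of similar brightness changed by 0.36 ± 0.12 (adjusted p = 0.0557) and 0.44 ± 0.12 (adjusted p = 0.0462). IKBIP, a membrane protein gene linked to NF-kB signalling and cell death, read 5.47 and 5.25 untreated and 6.06 and 6.45 with P2 in p53+/+ cells and rose there by 0.90 ± 0.17 log2 (adjusted p = 0.0104). In p53-/- cells IKBIP read 6.07 and 5.69 untreated and 5.93 and 6.01 with P2, so that the groups overlapped, and its other probes changed by 0.79 ± 0.30 and 0.26 ± 0.15 in p53+/+ cells (adjusted p = 0.121 and 0.313). The CYFIP2 call in p53-/- cells was lost without p53-/- untreated replicate 2 or p53-/- P2 replicates 1 or 2 (0.39 to 0.48 log2, adjusted p = 0.0654 to 0.0793), and the IKBIP call in p53+/+ cells without p53+/+ untreated replicate 2 or p53+/+ P2 replicate 2 (0.71 to 0.79 log2, adjusted p = 0.0789 to 0.0819).

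TP53I13, which inhibits growth when overexpressed, rose by 0.49 ± 0.13 log2 in p53-/- cells (adjusted p = 0.0209), from 7.18 and 7.46 to 7.73 and 7.90. In p53+/+ cells it rose by 0.65 ± 0.13 (adjusted p = 0.0117), from 7.69 and 7.78 to 8.37 and 8.40. DRAM1, a lysosomal membrane protein of p53-dependent autophagy, rose by 0.38 ± 0.10 (adjusted p = 0.0275) and 0.46 ± 0.10 (adjusted p = 0.0219), from 8.11 and 8.05 to 8.42 and 8.48 and from 7.94 and 8.05 to 8.43 and 8.49. In both genes and both genotypes the treated arrays did not overlap with the untreated ones. This held for 25 of the 33 members in p53-/- cells and 23 in p53+/+ cells, uncalled ones among them. By itself such a separation of 2 arrays from 2 says little, and its share over all tested genes was not counted. The TP53I13 call was lost in p53-/- cells without p53-/- untreated replicate 1 or p53-/- P2 replicates 1 or 2 (0.35 to 0.58 log2, adjusted p = 0.0527 to 0.120), and in p53+/+ cells without any 1 of the 4 arrays compared (0.61 to 0.70 log2, adjusted p = 0.0548 to 0.0842). The DRAM1 call was lost in p53-/- cells without any 1 of the 4 arrays compared (0.35 to 0.41 log2, adjusted p = 0.0700 to 0.113), and in p53+/+ cells without any 1 of the 4 arrays compared (0.41 to 0.52 log2, adjusted p = 0.0665 to 0.132). AEN, PERP, a tetraspan membrane protein gene, TRIAP1, whose product protects from apoptosis, TP53I11 and BLOC1S2, a subunit gene of a lysosome-related complex, did not pass in either genotype. Their changes ran from -0.20 (BLOC1S2) to 0.34 (TP53I11) in p53-/- cells and from -0.45 (TP53I11) to 0.29 (BLOC1S2) in p53+/+ cells. SPATA18, which acts in mitochondrial quality control, was detected on 0 arrays.

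Of the cell surface members, 1 of 3 tested rose in each genotype. It was NINJ1, an adhesion protein that also drives membrane rupture in dying cells, which read 8.32 and 8.28 untreated and 8.66 and 8.77 with P2 in p53-/- cells and 8.46 and 8.58 untreated and 9.18 and 9.17 with P2 in p53+/+ cells. The treated arrays lay above the untreated ones of the same genotype, by 0.42 ± 0.10 log2 (adjusted p = 0.0190) and 0.66 ± 0.10 (adjusted p = 0.00456). The NINJ1 call in p53-/- cells was lost without any 1 of the 4 arrays compared (0.37 to 0.48 log2, adjusted p = 0.0538 to 0.0955). KITLG, the ligand of the receptor KIT, was among the brightest members at 11.82 and 11.97 in untreated p53-/- cells and changed by 0.10 ± 0.12 and -0.10 ± 0.12, while its dimmer probe changed by -0.080 ± 0.29 and 0.89 ± 0.29 (adjusted p = 0.0799 in p53+/+ cells). EDA2R, a receptor for the ectodysplasin isoform A2, was detected on 0 arrays. Why probes of 1 gene differed was not tested.

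**Figure D2:**
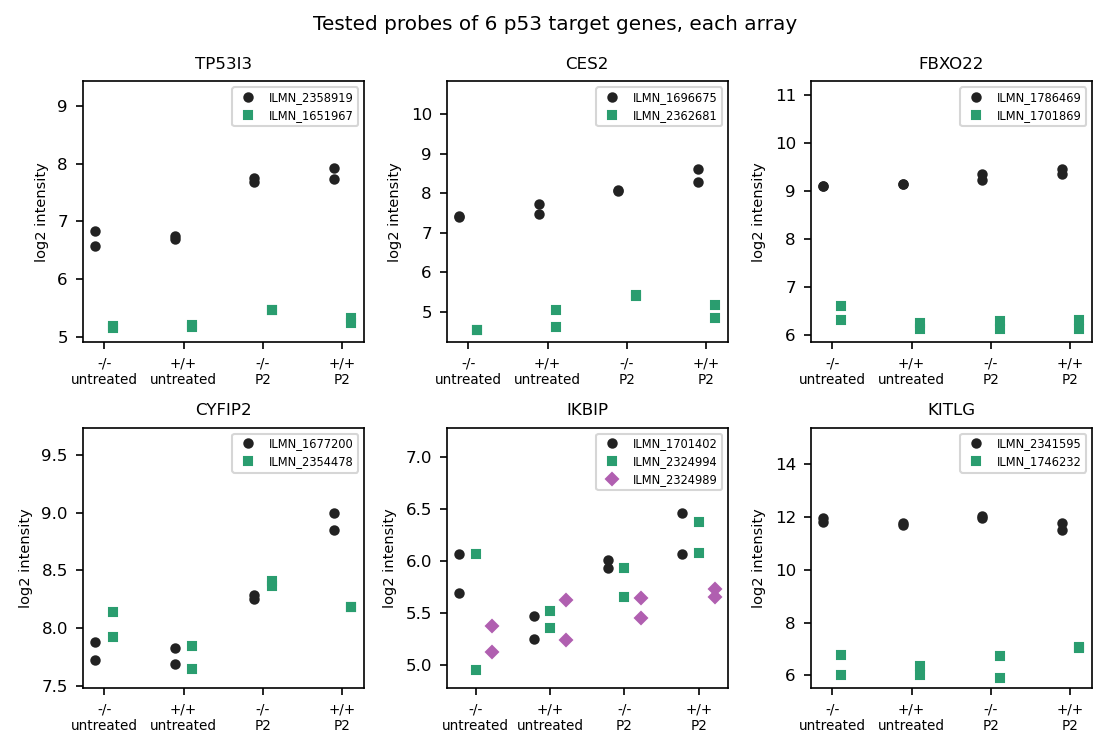
Log2 normalized intensity (y axis) of each tested probe on each array for TP53I3, CES2, FBXO22, CYFIP2, IKBIP and KITLG, by group (x axis), with 1 symbol per array. The brightest TP53I3, CES2 and CYFIP2 probes are higher on the treated arrays of both genotypes, while the dim TP53I3 probe stays between 5.15 and 5.46 and both KITLG probes overlap between untreated and treated p53-/- arrays.

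The next comparison asked whether the response to P2 depended on the genotype. The P2 effect in p53+/+ cells minus that in p53-/- cells passed the limma test for 0 of 33 members and for 0 of all 10932 genes (0% called). At an unadjusted p under 0.05, 5 of 33 members and 1731 of 10932 genes stood out, which are similar shares. These members were ZMAT3, with a difference of -1.53 ± 0.33 log2 (95% confidence interval -2.28 to -0.78, adjusted p = 0.101), CYFIP2 (0.70 ± 0.16, interval 0.34 to 1.07, adjusted p = 0.106), IKBIP (0.81 ± 0.24, interval 0.27 to 1.35, adjusted p = 0.164), PHLDA3 (-0.41 ± 0.16, adjusted p = 0.253) and PLK2 (-0.49 ± 0.20, adjusted p = 0.276). ZMAT3 and PHLDA3 thus leaned towards a larger rise in p53-/- cells, CYFIP2 and IKBIP towards a larger rise in p53+/+ cells, and PLK2 towards a larger fall in p53+/+ cells, none past the threshold. For CYFIP2 and IKBIP this rested on the brightest probe. The second CYFIP2 probe gave 0.077 ± 0.17 (adjusted p = 0.870) and the other IKBIP probes 0.51 ± 0.42 and -0.038 ± 0.22 (adjusted p = 0.602 and 0.957), and with the mean of the tested probes the differences were 0.39 for CYFIP2 and 0.43 for IKBIP. Without p53-/- untreated replicate 2, 4 members passed, beside 6.73% of all tested probes, ZMAT3 (-1.78, adjusted p = 0.00929), TP53I11 (-1.26, adjusted p = 0.0152), CYFIP2 (0.77, adjusted p = 0.0339) and IKBIP (1.01, adjusted p = 0.0316). That fit leaves replicate 1 as the lone untreated p53-/- array and assumes that it varies like the other groups. Without replicate 1 in its place, 0 members and 0% of probes passed, and the differences were -1.27 for ZMAT3 (adjusted p = 0.130), -0.33 for TP53I11 (0.610), 0.62 for CYFIP2 (0.192) and 0.61 for IKBIP (0.290). A second TP53I11 probe gave 0.00088 ± 0.20. With median scaling ZMAT3 passed alone (-1.63, adjusted p = 0.000559), beside 3.20% of all probes.

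For the genes that rose alike the difference was small and its interval still wide. It was 0.0014 ± 0.17 log2 for DDB2 (interval -0.39 to 0.39), 0.055 ± 0.16 for TP53INP1 (-0.32 to 0.43) and 0.075 ± 0.18 for TP53I3 (-0.32 to 0.47). The median length of such an interval to each side was 0.392 log2 over the 33 genes, before any adjustment for the number of probes tested. The sign of the P2 effect was the same in both genotypes for 27 of 33 genes, and these effects come from separate arrays of each genotype. The share of all tested genes with the same sign was not counted, so whether the members differ from them in this is not known.

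**Figure D3:**
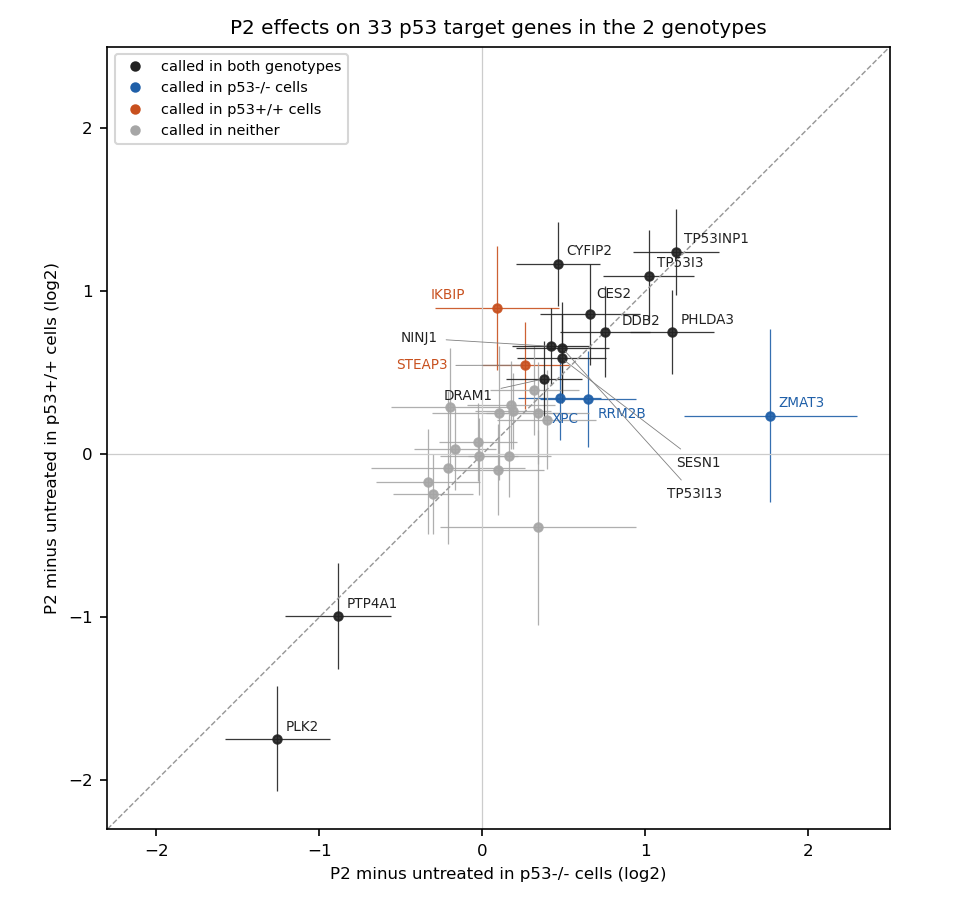
P2 effect in p53-/- cells (x axis) against that in p53+/+ cells (y axis) in log2 for the 33 tested genes, with bars for the 95% confidence intervals and colours for the genotypes in which a gene passed the test. Genes on the dashed line changed equally. ZMAT3 lies far to the right of it, at 1.77 and 0.24, while IKBIP and CYFIP2 lie above it.

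The last comparisons set the genotypes against each other. Without P2, 0 of 33 members differed between p53+/+ and p53-/- cells in the limma test, beside 0.0549% of all genes (6 genes), and under P2 0 of 33 differed, beside 0% of all genes. At an unadjusted p under 0.05 there were 8 of 33 members and 1982 of 10932 genes in untreated cells. Under P2 there were 9 of 33 members and 1608 of 10932 genes. In untreated cells 14 members were higher and 19 lower in p53+/+ cells by estimate, with a median of -0.071 log2, beside -0.049 over all genes. These values share the untreated arrays with the P2 effects above. As a group, the target genes were thus not higher by estimate in the untreated cells labelled p53+/+. Among targets outside the list, CDKN1A differed there by -0.081 ± 0.11 log2 and MDM2, the ubiquitin ligase gene that p53 induces against itself, by -0.063 ± 0.12. The MDM2 probe lay near the lowest signal of detected probes in untreated p53-/- cells, so a lower level there could hardly be seen.

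ZMAT3 came closest, higher by 1.33 ± 0.24 log2 in untreated p53+/+ cells (interval 0.80 to 1.87, adjusted p = 0.0528), while its difference under P2 was -0.20 ± 0.24 (adjusted p = 0.756). It passed in untreated cells under 8 of 20 alternatives and missed the threshold under 12, with values from 1.07 to 1.59. These are not separate checks, since the authors' log2 values and those without background correction are the same data. ZMAT3 has 1 tested probe, so the mean of the tested probes and the stricter detection filter left its estimate as in the main fit. It passed without p53-/- untreated replicate 2 (1.59, adjusted p = 0.00284), without p53+/+ P2 replicate 1 (1.34, adjusted p = 0.0438) and without p53+/+ P2 replicate 2 (1.34, adjusted p = 0.0443), and missed it without p53-/- untreated replicate 1 (1.07, adjusted p = 0.114). With median scaling it passed as well (1.28, adjusted p = 5.5e-05), as it did with the authors' log2 values and without background correction (1.20 in each, adjusted p = 0.0306), with the stricter detection filter (adjusted p = 0.0324) and with the mean of the tested probes (adjusted p = 0.0382). TP53I11 read 5.96 and 6.89 in untreated p53-/- and 7.52 and 7.10 in untreated p53+/+ cells, a difference of 0.88 ± 0.27 (adjusted p = 0.121), and without p53-/- untreated replicate 1, its lowest array, it was smaller (0.41, adjusted p = 0.446). A second TP53I11 probe differed by -0.11 ± 0.14 (adjusted p = 0.730). The other members at an unadjusted p under 0.05 in untreated cells were PHLDA3 (0.43 log2), TP53I13 (0.41) and SERTAD1 (0.26), higher in p53+/+ cells by estimate, and SESN1 (-0.31), ASCC3 (-0.46) and IKBIP (-0.52), lower by estimate. Without p53-/- untreated replicate 2, TP53I11 (1.35, adjusted p = 0.00161), TP53I13 (0.55, adjusted p = 0.0360) and IKBIP (-0.72, adjusted p = 0.0351) passed there as well, in a fit that called 9.13% of all tested probes, against 0.0686% with all arrays. Without p53-/- untreated replicate 1 in its place, TP53I13 (0.27, adjusted p = 0.524) and IKBIP (-0.32, adjusted p = 0.557) moved towards 0. The other IKBIP probes differed by -0.071 and 0.18 in untreated cells.

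Under P2 the estimates most above 0 were those of CYFIP2 (0.66 ± 0.11 log2, interval 0.40 to 0.91, adjusted p = 0.172), TP53I13 (0.57 ± 0.13, adjusted p = 0.172) and NINJ1 (0.46 ± 0.10, adjusted p = 0.172). For the brightest probe of each of these the 2 treated p53+/+ arrays lay above the 2 treated p53-/- arrays. The genotypes did not overlap under P2 for 22 of the 33 members, though 0 passed the test. The share over all tested genes was not counted. STEAP3 (0.37), CES2 (0.37) and SERTAD1 (0.36) followed, and RRM2B (-0.44), PLK2 (-0.42) and KITLG (-0.36) were lower in p53+/+ cells by estimate. For CYFIP2, CES2 and KITLG the second probe had the opposite sign, -0.21, -0.41 and 0.74. The second CYFIP2 probe read 8.36 and 8.41 in treated p53-/- and 8.18 and 8.18 in treated p53+/+ cells, the reverse order of the brightest one, and the mean of both gave 0.22 (adjusted p = 0.388). Where moderation followed the variance trend and was robust, CYFIP2 passed (0.66, adjusted p = 0.0399).

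**Figure D4:**
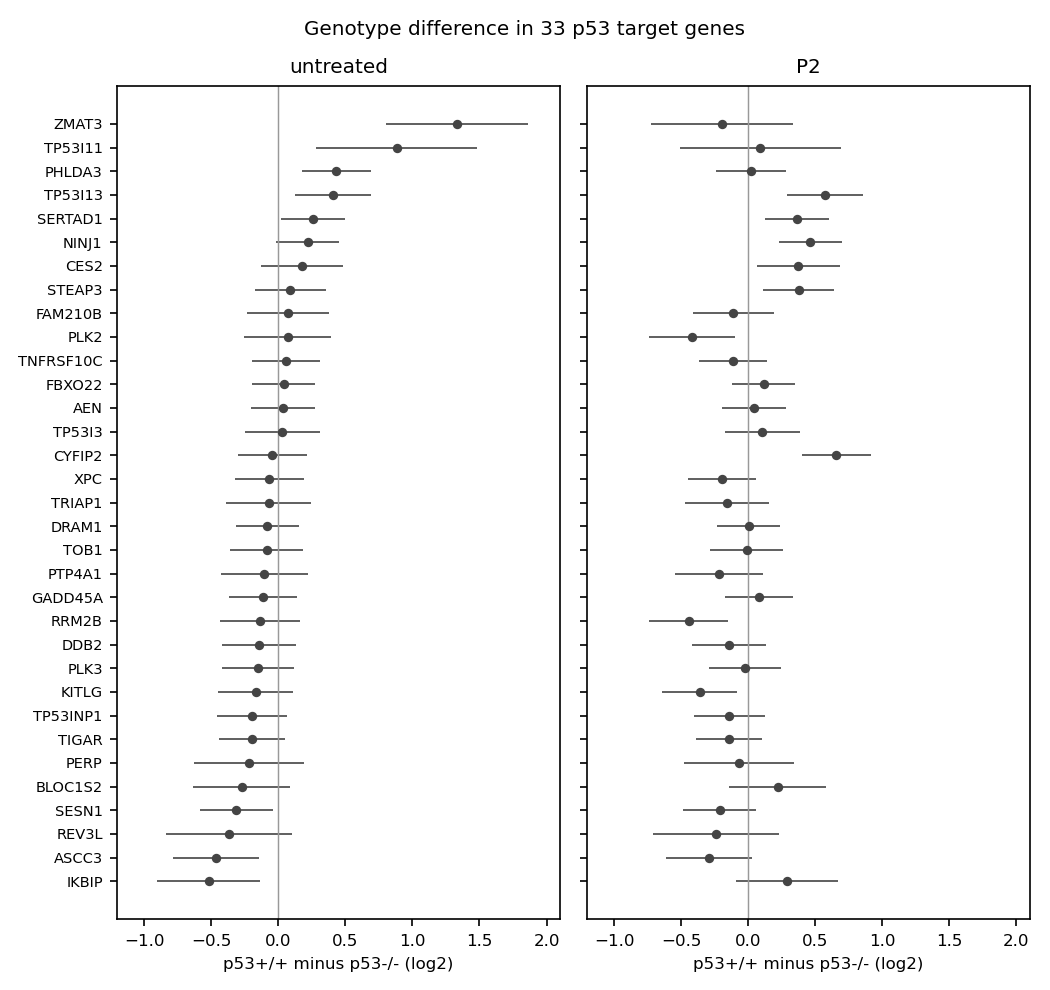
Level in p53+/+ minus level in p53-/- cells (x axis, log2) for each of the 33 tested genes in untreated cells (left) and under P2 (right), with 95% confidence intervals. In untreated cells ZMAT3 stands at 1.33 and the estimates scatter on both sides of 0, and under P2 CYFIP2 stands highest at 0.66 and ZMAT3 is at -0.20.

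Another 50 genes named as p53 targets, CDKN1A among them, served as a reference, of which 44 were tested. In p53-/- cells 14 of these 44 rose and 2 fell, beside 10.4% of all tested genes higher and 14.5% lower. In p53+/+ cells 5 of 44 rose and 3 fell, beside 5.82% of all tested genes higher and 6.85% lower. The median effects were 0.20 and 0.15 log2. GDF15, a stress cytokine gene, rose by 2.49 ± 0.13 log2 in p53-/- and 2.58 ± 0.13 in p53+/+ cells, and CDKN1A by 1.73 ± 0.11 and 2.01 ± 0.11. Both rises exceed that of any member in p53+/+ cells. In p53-/- cells TM7SF3, a membrane protein gene, rose by 1.48 ± 0.27 log2 (adjusted p = 0.00533) and TRAF4, an adaptor protein gene, by 1.15 ± 0.31 (adjusted p = 0.0270). In p53+/+ cells they differed by 0.0040 ± 0.27 and -0.041 ± 0.31. The difference between the genotypes in these effects did not pass, at -1.48 ± 0.38 for TM7SF3 and -1.19 ± 0.45 for TRAF4 (limma adjusted p = 0.132 and 0.239). TRAF4 was 1.27 log2 lower on p53-/- untreated replicate 1 than on replicate 2, and its rise was 0.51 log2 without replicate 1. Without that array fewer of the 44 passed in p53-/- cells, as over all tested probes, and their median effect was 0.21 log2. MDM2 rose by 0.46 ± 0.12 in p53+/+ cells (adjusted p = 0.0348) and differed by -0.074 ± 0.12 in p53-/- cells (adjusted p = 0.677). The difference between these effects, 0.53 ± 0.16, did not pass (limma adjusted p = 0.174). The MDM2 probe read 4.80 and 5.05 in untreated p53-/- cells, near the lowest signal of detected probes. APAF1, the scaffold gene of the apoptosome, fell by 0.36 ± 0.11 log2 in p53-/- and by 0.65 ± 0.11 in p53+/+ cells.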

How the data were processed

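Per the labels' protocols, biotin-labelled cRNA made from total RNA was read on Illumina chips, and frozen tissue is mentioned although the samples are a cell line. GenomeStudio is named by the submitters' processing notes, without version or role. The deposited table gives an intensity per probe and array, not normalized, and a detection p-value for each. Log2 values, deposited as well, equal the quantile-normalized log2 intensities within 5.0e-09.

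Here the intensities were background-corrected with limma 3.58.1 in R 4.3.3 (normexp from the detection p-values, offset 16), put on the log2 scale and quantile-normalized. The limma model held the 4 group means and took in all 8 arrays (4 residual and 5.15 prior degrees of freedom), and p-values were adjusted over 14574 tested probes per contrast. Symbols are those of the platform annotation, with older names matched through RefSeq gene names. All members were named with their role, and values were given for those called, just outside the threshold or with probes that disagree. The members, the gene lists and the tests were chosen with earlier results of these data known. The steps were tested on simulated data. Python 3.11.15 with matplotlib 3.10.9 drew the plots. Background correction, offset, normalization, filter, moderation, array weights, samples in the fit, replicate block, probe summary and leaving out each array were varied.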

Additional observations from a re-analysis of the deposited data

How the results depend on the processing

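The 29 called member effects were recomputed under the alternatives, which gave 575 values, all of the same direction, of which 520 kept the call and 55 lost it. These values are not separate checks. Changing the filter, moderation, array weights, replicate block or groups in the fit left the estimate of a probe as it was. Its direction could not change there. The authors' log2 values and those without background correction are the same data, counted under each name. Members called in p53-/- cells numbered 15, beside 25.4% of all tested probes. They numbered 9 with median scaling (17.5%) and 11 with only the groups of the comparison (16.5%). Under the other settings that kept all arrays they numbered 15 to 18 (13.9% to 31.9%). Leaving out 1 array gave 7 to 16, the lowest when p53-/- P2 replicate 2 (7), p53-/- P2 replicate 1 (9) or p53-/- untreated replicate 1 (11) was dropped. In p53+/+ cells 14 were called, 8 with median scaling and 13 to 16 under the others. Leaving out 1 array gave 9 to 15, with 9 without p53+/+ untreated replicate 2 or p53+/+ P2 replicate 2. Without either of these arrays a smaller share of all tested probes was called too. SESN1, DRAM1, TP53I13 and NINJ1 missed the threshold in p53-/- cells with only the groups of the comparison. The difference in P2 effect had 0 members called, 1 with median scaling, and 0 to 4 without 1 array. The untreated genotype difference had 0, 2 with median scaling (ZMAT3 and TP53I11), 1 (ZMAT3) without background correction, with the authors' log2 values, with the filter at a detection p of 0.01 on every array and with the mean of the tested probes, and 0 to 4 without 1 array. Under P2 it had 0, 1 (CYFIP2) where moderation was robust and followed the variance trend, and 0 without any 1 array. In untreated cells the genotype difference called 4.26% of all tested probes with median scaling, against 0.0686% in the main fit. It called 2.30% without background correction or with the authors' log2 values, and 2.03% with the stricter filter. The difference in P2 effect called 3.20% with median scaling, against 0% in the main fit. With the mean of the tested probes, the genotype difference under P2 reversed for CES2 (-0.015 log2 in place of 0.37) and KITLG (0.19 in place of -0.36). For CYFIP2 it fell to 0.22 from 0.66. With the mean of the probes the P2 effect of TP53I3 was 0.65 and 0.59 log2 in p53-/- and p53+/+ cells and that of CES2 0.52 in p53+/+ cells, all still called. With an offset of 50 the calls of PLK2 (-0.79 and -1.04), DDB2 (0.49 in p53+/+ cells) and IKBIP (0.56 in p53+/+ cells) held at values smaller by over 1.5 times. Why these values moved was not tested. The labels pair no replicates by number, and the deviations of same-numbered arrays correlated between groups with r from -0.19 to 0.20. With the replicate block, 15, 14, 0, 0 and 0 members were called in the 5 contrasts, as without it. An array left out leaves its group with 1 array, which is assumed to vary like the others. Leaving p53-/- untreated replicate 1 out for the other p53 target genes was chosen after seeing the data. PLK3, TNFRSF10C and PLK2 under P2 lay near the detection limit, where signal over background limits what can be measured.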
